A study of Mus musculus with 41 samples.

Results

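The 39 Hox cluster genes are the rows of the deposited expression table, out of 47480 gene rows, whose symbol is Hoxa, Hoxb, Hoxc or Hoxd followed by a number. This rule uses the symbol and no measured value. They were followed across 41 mouse mammary tumors with 1 RNA library per tumor. The tumors were 28 Plk2-/-, p53-/- double null tumors, called PLK2null tumors below after their sample names, and 13 p53-/- tumors in which Plk2 was not deleted, called p53null tumors. Both groups lack p53, arose on the Balb/c background from mammary epithelial cells of null mice placed in cleared fat pads of wild-type hosts, and were grown untreated in syngeneic hosts whose age is not given in the sources used here. The RNA was that of whole tumors, so host stroma, vessels and fat pad were measured with the tumor cells. Tumors PLK2null-7747, PLK2null-7748, PLK2null-7749, PLK2null-7750, PLK2null-7753, PLK2null-7763 and PLK2null-7764 were primary tumors, and which of the others descend from the same primary tumor is not stated. The p-values below therefore measure the spread between these tumors, which may not all be independent. The study called 4 of the 41 tumors claudin-low, a class of breast tumor with little claudin and other tight junction expression. These were PLK2null-732, PLK2null-733 and PLK2null-743 among the PLK2null tumors and T11 among the p53null tumors. The class was assigned by clustering expression values of these same tumors, so a comparison by class is not independent of it.

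Hox genes encode homeodomain transcription factors that give cells their position along the body axis. In the mouse they lie in clusters named Hoxa to Hoxd, numbered so that low numbers (anterior genes) lie at the 3′ end and high numbers (posterior genes) at the 5′ end, and genes with the same number in different clusters are called paralogs. Neighbouring genes tend to share open or Polycomb-silenced chromatin. In the mammary gland, paralogs of group 9 act in the growth of the gland in pregnancy, and Hoxc6 and Hoxc8 take part in placing and forming the gland. Adult fibroblasts, vessels and fat also keep Hox patterns of the body region they came from.

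In the GENCODE vM21 annotation on GRCm38, the mm10 build, the 11 Hoxa genes lie on chromosome 6 from 52155590 to 52260880 on the minus strand. The 10 Hoxb genes lie on chromosome 11 from 96194316 to 96368256 on the plus strand, the 9 Hoxc genes on chromosome 15 from 102921103 to 103036852 on the plus strand, and the 9 Hoxd genes on chromosome 2 from 74668310 to 74765142 on the plus strand. The annotated spans of 11 members, from gene start to gene end, overlap that of a neighbour on the same strand. Among them are Hoxa3 with Hoxa4, Hoxa5 and Hoxa6, and Hoxc5 with Hoxc6, Hoxc8, Hoxc9 and Hoxc10. The spans of 14 members overlap an antisense noncoding gene, such as Hoxb5os at Hoxb5 and Hoxb6. Whether exons overlap was not examined. The strand setting of the quantification is not given in the sources used here, so reads in these overlaps are uncertain, and the values of Hoxa3 and its overlapped neighbours most of all.

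Promoters are printed for Hoxd8, Hoxb8, Hoxa5 and Hoxd4, the members at which the differences below can be followed best among those with a promoter sequence. They stand for the Hoxd genes and the posterior Hoxb genes that were high in claudin-low tumors and for the anterior Hoxa genes that were high in PLK2null tumors. Each is the 250 bases before the RefSeq transcript start in GRCm38.p6, read 5′ to 3′ on the strand of the gene, at chr2:74704365-74704614 (plus) for Hoxd8, chr11:96281655-96281904 (plus) for Hoxb8, chr6:52204588-52204837 (minus) for Hoxa5 and chr2:74721728-74721977 (plus) for Hoxd4. Capitals mark matches, on either strand, to the TATA box TATAAA, the CCAAT box CCAAT and the Pbx-Hox motif TGATTNAT, none of which overlap here.
Hoxd8: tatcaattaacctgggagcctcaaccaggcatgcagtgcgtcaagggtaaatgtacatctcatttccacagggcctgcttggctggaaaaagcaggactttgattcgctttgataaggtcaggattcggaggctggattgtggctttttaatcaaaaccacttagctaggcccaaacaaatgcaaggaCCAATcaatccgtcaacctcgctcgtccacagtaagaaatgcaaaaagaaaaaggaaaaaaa
Hoxb8: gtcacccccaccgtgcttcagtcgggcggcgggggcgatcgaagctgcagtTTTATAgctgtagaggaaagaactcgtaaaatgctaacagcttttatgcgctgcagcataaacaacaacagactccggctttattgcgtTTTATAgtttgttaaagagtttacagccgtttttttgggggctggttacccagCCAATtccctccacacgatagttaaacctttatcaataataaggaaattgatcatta
Hoxa5: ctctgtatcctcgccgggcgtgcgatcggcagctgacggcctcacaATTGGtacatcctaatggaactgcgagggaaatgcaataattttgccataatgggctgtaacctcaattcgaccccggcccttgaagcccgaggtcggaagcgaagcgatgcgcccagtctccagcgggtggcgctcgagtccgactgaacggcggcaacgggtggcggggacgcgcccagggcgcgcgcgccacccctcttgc
Hoxd4: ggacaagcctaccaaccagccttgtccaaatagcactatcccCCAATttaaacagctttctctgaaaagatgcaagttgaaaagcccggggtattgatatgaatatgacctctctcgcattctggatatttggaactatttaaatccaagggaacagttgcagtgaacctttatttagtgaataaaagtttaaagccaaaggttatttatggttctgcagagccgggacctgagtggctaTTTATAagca

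The Hoxa5 promoter held 28 CG dinucleotides and was 63.6% G or C, whereas the Hoxb8, Hoxd8 and Hoxd4 promoters held 12, 6 and 3 and were 44.4, 44.4 and 40.4% G or C. All 4 held 1 CCAAT box. TATA boxes were found at Hoxb8 (2 matches) and Hoxd4 (1 match), and the Pbx-Hox motif at none of the 4. The RefSeq table held 24 promoters of 22 of the 39 members. Over these the median was 12.5 CG dinucleotides (range, 2 to 35) and 58.6% G or C, beside 6 (range, 0 to 56) and 52.4% over 32851 promoters of all genes. A CCAAT box was in 58.3% of the Hox promoters and 33.8% of all promoters, a TATA box in 16.7 and 12.4%, and the Pbx-Hox motif in 8.33 and 2.82%. These matches describe the letters of the window only.

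The deposited values are linear and were scaled to an upper quartile of 1000 over the nonzero genes of a tumor. The low values lie on steps that give the worth of 1 read, 0.388 to 0.817 units, which implies 29409598 to 70868089 fragments per tumor (median, 41803695) and a floor of 3 reads at 1.16 to 2.45 units that covers counting error only. Plk2, the targeted gene, was at 298 ± 149 (SD, n = 28) in PLK2null and 3436 ± 2104 (SD, n = 13) in p53null tumors, and p53null-7435 (186) lay inside the PLK2null range. For the tight junction gene Cldn3, the claudin-low PLK2null tumors had 9.02 ± 9.34 (SD, n = 3), and it was at 19.9 in T11 and at 608 in PLK2null-7763, the lowest of the 25 other PLK2null tumors. Cldn7 showed the same order, with 12.6 ± 9.90 (SD, n = 3), 13.8 and 138. PLK2null-7763 carried no claudin-low call but stood near the 3 claudin-low tumors in its Hox values, so results that rest on it are given with and without it. All p53null library titles carry a numbered series name that no PLK2null title carries, so a library batch and the genotype cannot be told apart.

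Hox genes were read widely but at modest levels. Of the 39 members, 17 were above the floor in all 41 tumors, 20 in some tumors and 2 in none. Hoxd12 was listed at 0 in every tumor and Hoxd11 reached 1.23 at most. A mean of at least 10 was required for a test, and 31 members passed it over the 41 tumors. The 8 that did not were Hoxa11, Hoxa13, Hoxb1, Hoxc12, Hoxd1, Hoxd11, Hoxd12 and Hoxd13. Hoxb1, the most anterior Hoxb gene, was above the floor in 3 tumors and never over 3.87. Members that passed only because some tumors are high had to differ between tumors, so the counts below are read against the same counts over all genes.

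Levels can be compared between genes only per kilobase of exon. By mean level per kilobase over the 41 tumors, Hoxa5 led its cluster with 213 units, Hoxd8 with 99.9, Hoxb2 with 63.2 and Hoxc6 with 46.5. When the longest transcript was used as the length, Hoxa3 (291) and Hoxb3 (78.0) led the Hoxa and Hoxb clusters instead. Summed per kilobase over all members, total Hox level ranged from 490 to 4506 (median, 1392) in PLK2null tumors and from 98.4 to 3066 (median, 702) in p53null tumors, and the ranges overlapped.

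**Figure D1:**
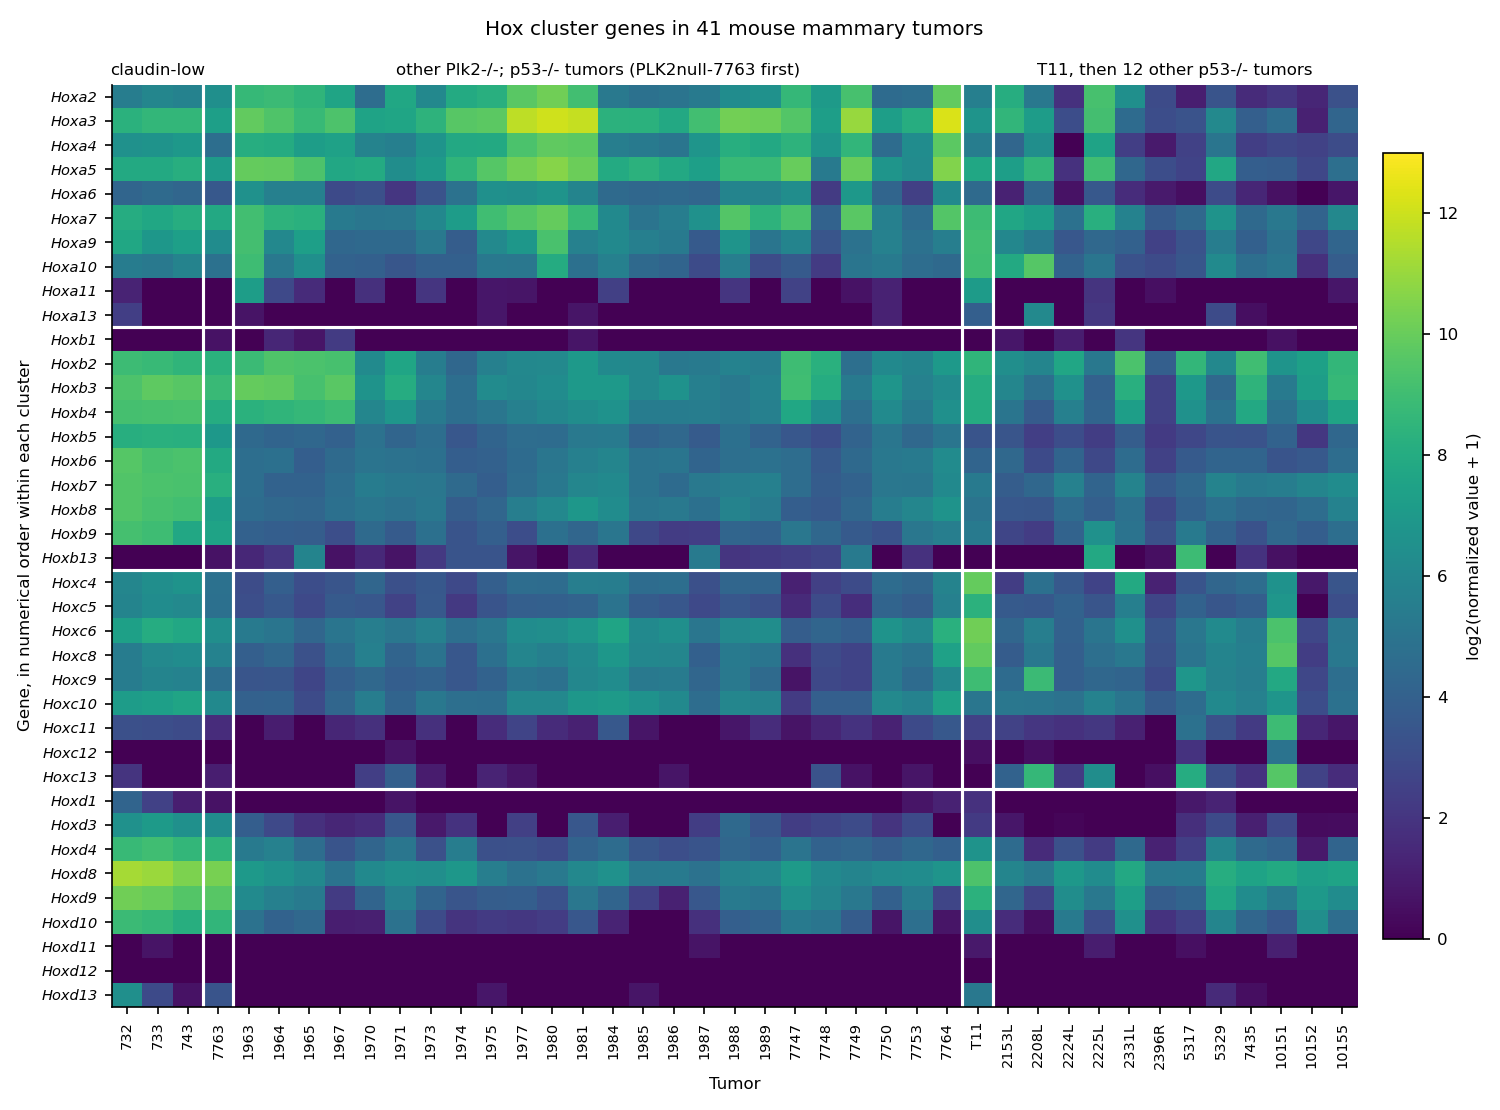
Heat map of log2(normalized value + 1) for the Hox genes shown (vertical axis, in numerical order within each cluster) in each of the 41 tumors (horizontal axis). Hoxb4 to Hoxb9 and Hoxd3 to Hoxd10 are higher in PLK2null-732, PLK2null-733, PLK2null-743 and PLK2null-7763 than in most other tumors, and Hoxc4 to Hoxc9 in T11 and p53null-10151.

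The cluster that held most of this level differed between tumors. Hoxa led in 23 of 28 PLK2null tumors, Hoxb in 4 and Hoxd in 1, which was PLK2null-7763. In the p53null tumors Hoxb led in 6 of 13, Hoxa in 5 and Hoxc in 2, T11 and p53null-10151. Hoxa made up a median of 61.3% (range, 9.90 to 92.9%) of the summed level in PLK2null tumors and 11.8% (range, 2.91 to 74.7%) in p53null tumors. In the 3 claudin-low PLK2null tumors Hoxb (42.8 to 45.6%) and Hoxd (31.9 to 41.9%) together outweighed Hoxa (9.90 to 14.1%) and Hoxc (4.95 to 8.44%). PLK2null-7763 had a like makeup with 49.7% Hoxd and 12.6% Hoxa, while in the 24 remaining PLK2null tumors Hoxd made up at most 14.2% and Hoxa at least 36.8%.

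**Figure D2:**
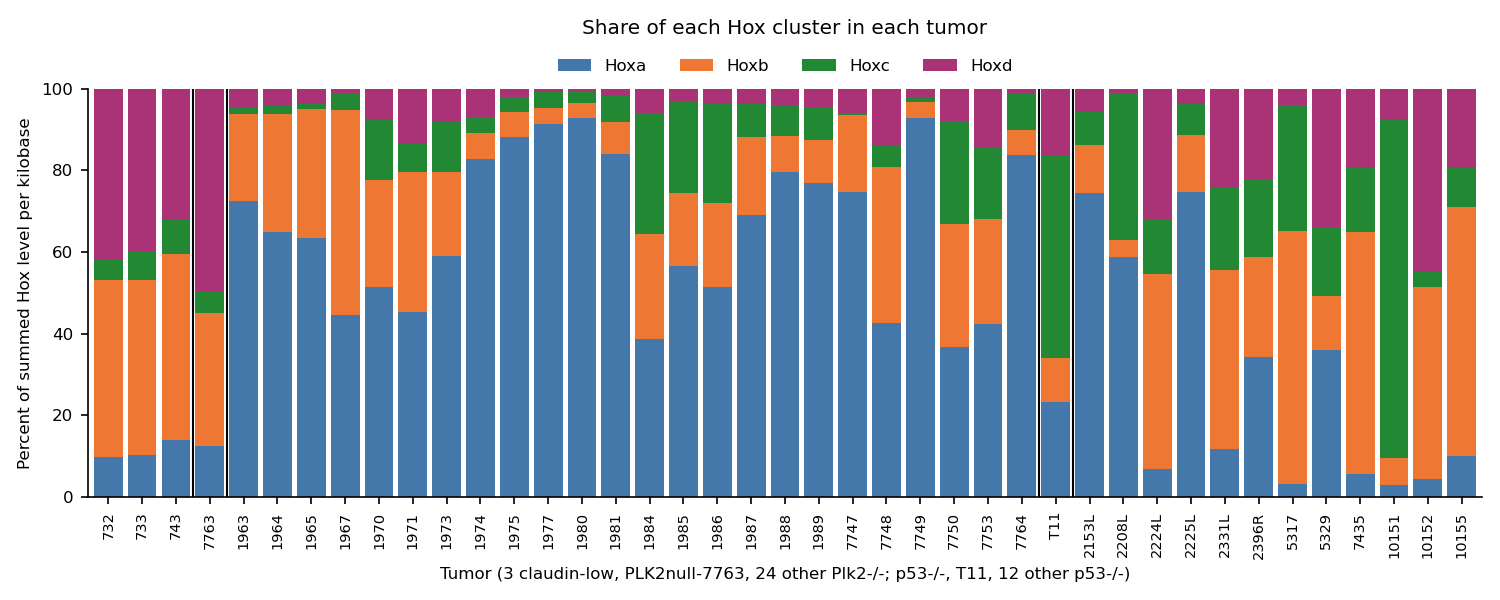
Share of the Hoxa, Hoxb, Hoxc and Hoxd clusters in the summed Hox level per kilobase (vertical axis, percent) in each of the 41 tumors (horizontal axis). Hoxa is the largest share in 23 of 28 PLK2null tumors but makes up 9.90 to 14.1% in the claudin-low PLK2null tumors, and Hoxc makes up 83.2% in p53null-10151.

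The genotype comparison asked how the tumors that lack Plk2 beside p53 differ from those that lack p53 alone. Anterior Hoxa genes were higher in PLK2null tumors, with differences of up to 4.16 on the log2(value + 1) scale, and Hoxc13, a posterior gene known for its role in hair and nail, was lower. Of the 31 members tested with limma and Benjamini-Hochberg adjustment over 17208 genes, 12 were higher in PLK2null tumors, 1 was lower and 18 did not pass. Over all genes tested, 24.3% were called higher and 15.3% lower. By cluster, 8 of 9 Hoxa genes tested were higher, as were 3 of 9 Hoxb genes and 1 of 5 Hoxd genes, while none of 8 Hoxc genes was higher and 1 was lower. None of the 8 Hoxc genes had an unadjusted p below 0.05 by limma in the direction of PLK2null, and 3 had in the other direction. Over all 17208 genes, 8163 had such a p in either direction. The median difference was 0.44 over the 31 members and 0.10 over all genes, and 3.01, 0.95, −0.35 and −0.27 over the Hoxa, Hoxb, Hoxc and Hoxd members.

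Hoxa3, which patterns the pharyngeal arches and neck, had values of 153 to 4903 (median, 488) in the 28 PLK2null tumors and 1.29 to 561 (median, 22.1) in the 13 p53null tumors. The groups overlapped, and the highest PLK2null values were 4903 in PLK2null-7764, 4277 in PLK2null-1980, 3654 in PLK2null-1981 and 3335 in PLK2null-1977. Over the genes other than Hox, the closest tumor to each of these was another of them, so they may not be independent. The difference was 4.16 (SE, 0.59) on the log2 scale with an adjusted p of 2.65e-07 by limma. The annotated span of Hoxa3 holds Hoxa4, Hoxa5 and Hoxa6. Whether they share exons, so that reads may be split among them, was not examined. Hoxa4 ranged from 22.9 to 911 (median, 135) in PLK2null tumors and from 0 to 184 (median, 5.78) in p53null tumors, a difference of 3.70 (SE, 0.57, adjusted p = 1.31e-06 by limma). Hoxa5, which has been tied to epithelial differentiation in the lung and breast, ranged from 39.2 to 1610 (median, 303) and from 2.66 to 510 (median, 19.2), a difference of 3.26 (SE, 0.60, adjusted p = 2.83e-05 by limma). For both genes a few p53null tumors reached the PLK2null range.

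Hoxa2, a hindbrain patterning gene, moved the same way. It ranged from 22.3 to 1173 (median, 116) in PLK2null and from 1.16 to 594 (median, 8.41) in p53null tumors, a log2 difference of 3.07, and the groups overlapped. Hoxa6 was low in both groups, at 3.12 to 122 (median, 21.6) and 0 to 21.6 (median, 1.41), and its log2 difference of 3.01 ranged from 1.53 to 3.82 with other pseudocounts and settings. The adjusted p-values by limma were 0.000405 for Hoxa2 and 3.12e-06 for Hoxa6.

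Toward the 5′ end of Hoxa the differences were smaller. Hoxa7 was at 16.1 to 959 (median, 248) in PLK2null tumors and 12.01 to 479 (median, 53.6) in p53null tumors, with a log2 difference of 1.47 (SE, 0.58, adjusted p = 0.0419 by limma). Hoxa9, a paralog group 9 gene also known for leukemia, was at 9.79 to 626 (median, 51.4) and 4.62 to 532 (median, 18.2), with a log2 difference of 1.28 (SE, 0.51, adjusted p = 0.0416 by limma). Both calls were lost without p53null-7435, with adjusted p-values by limma of 0.0723 for Hoxa7 and 0.0605 for Hoxa9. Hoxa10, known for its role in the uterus, was at 3.77 to 492 (median, 27.5) and 2.45 to 762 (median, 25.1), with a log2 difference of −0.30 (SE, 0.58, adjusted p = 0.71 by limma), and it did not pass.

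**Figure D3:**
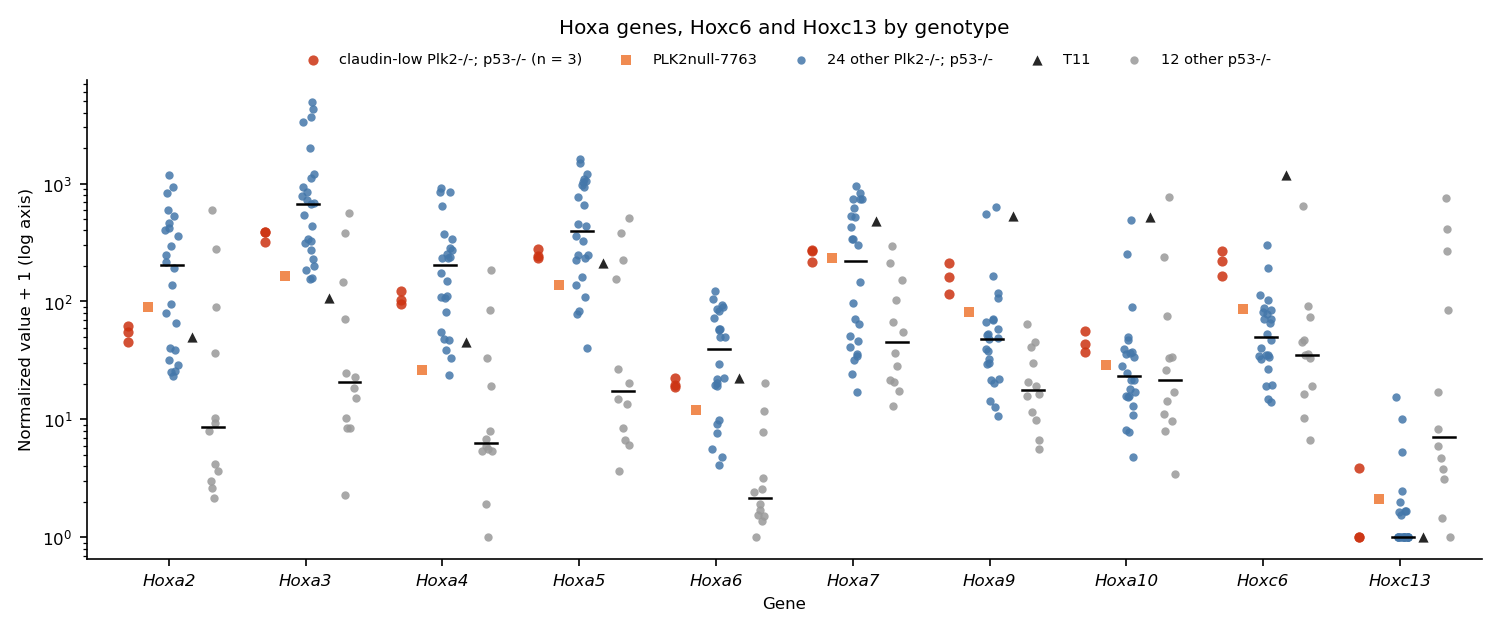
Normalized value + 1 (vertical log axis) of 8 Hoxa genes, Hoxc6 and Hoxc13 (horizontal axis) in each tumor, with points for single tumors, separate symbols for the 3 claudin-low PLK2null tumors, PLK2null-7763 and T11, and bars at the medians of the 24 remaining PLK2null and 12 remaining p53null tumors. Hoxa2 to Hoxa6 sit higher in PLK2null than in most p53null tumors, Hoxa10 does not, and the highest Hoxc13 values, 759, 410 and 267, belong to p53null tumors.

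Outside Hoxa, Hoxb5, Hoxb6, Hoxb8 and Hoxd3 were higher in PLK2null tumors. Hoxb5 was at 7.53 to 309 (median, 20.4) in PLK2null tumors and 3.27 to 19.6 (median, 9.17) in p53null tumors, a log2 difference of 1.74 (SE, 0.40). Hoxb6 was at 11.3 to 751 (median, 28.7) and 4.62 to 23.8 (median, 17.03), a log2 difference of 1.60, and Hoxb8 at 11.3 to 707 (median, 36.6) and 6.003 to 52.6 (median, 19.5), a log2 difference of 1.32. The upper ends of these PLK2null ranges belong to the claudin-low tumors, and the calls of all 3 genes also passed without the 4 claudin-low tumors, where Hoxd3 fell under the filter and was not tested. Hoxd3 was at 0 to 134 (median, 4.28) and 0 to 6.51 (median, 0.33), with most p53null tumors under the floor of 3 reads, so its log2 difference of 1.70 moved with the pseudocount and other settings (range, 0.73 to 2.57). The p53null means of Hoxa6 (5.15), Hoxb5 (8.88) and Hoxd3 (1.64) were under the filter of 10, so these genes passed through the PLK2null tumors and their tests carry that limit. The adjusted p-values by limma were 0.00051, 0.0051, 0.0178 and 0.0216 for Hoxb5, Hoxb6, Hoxb8 and Hoxd3.

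Hoxc13 was above the floor in 13 of 41 tumors. Its PLK2null values ran from 0 to 14.4 with a median of 0, and its p53null values from 0 to 759 with a median of 4.90. Hoxc13 passed the filter through the p53null tumors alone (mean, 120 in p53null and 1.31 in PLK2null tumors), so it had to differ and its test is no support of its own. The log2 difference was −3.11 (SE, 0.67, adjusted p = 0.000258 by limma), and 5 p53null tumors, with 759, 410, 267, 82.9 and 16.2, lay above every PLK2null tumor. Against the 7 primary PLK2null tumors alone its adjusted p was 0.117 by limma.

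With only the 7 primary tumors set against the 13 p53null tumors, 6 members of 30 tested were called higher and none lower, beside 11.6% higher and 5.69% lower over all genes of that fit. Hoxa3, Hoxa4, Hoxa6, Hoxb5 and Hoxb6 were among them and kept their call in every alternative in which they were tested. Hoxd3 was not tested there. The sum of 6 epithelial markers (Epcam, Krt8, Krt18, Cdh1, Krt5 and Krt14) also differed between the genotypes, with a median of 70510 (range, 48.0 to 109942) in PLK2null and 143567 (range, 33757 to 276620) in p53null tumors, and its part in the Hoxa differences was not tested. Fewer cells that express a gene and less RNA of it per cell cannot be told apart in such whole-tumor RNA.

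The claudin-low comparison asked how PLK2null-732, PLK2null-733 and PLK2null-743 differ from the 25 other PLK2null tumors. These 3 tumors correlated at 0.93 to 0.96 with each other over the genes other than Hox, and they may not be independent. Hoxb3 to Hoxb9 and Hoxd3 to Hoxd10 were higher in the claudin-low tumors, by 2.54 to 5.52 on the log2 scale, while no Hoxa gene passed the test. Of the 28 members that passed the filter in these tumors, 16 were higher by limma, 0 were lower and 12 did not pass. At an unadjusted p below 0.05 by limma, 17 were higher and 1 was lower, beside 7811 of all 17153 genes in either direction. Over all 17153 genes tested, 20.2% were called higher and 17.1% lower. The called members were 7 of 8 Hoxb genes, 4 of 6 Hoxc genes, 5 of 5 Hoxd genes and 0 of 9 Hoxa genes. Median log2 differences were 3.89, 2.08, 4.70 and −0.52 over the Hoxb, Hoxc, Hoxd and Hoxa members, 2.26 over all 28 and 0.02 over all genes tested. In 11 of the 28 members all 3 claudin-low tumors lay above all 25 others, beside 11.1% of all genes tested. Without PLK2null-7763 this was so in 13 members, for which the matching share of all genes was not computed.

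Hoxd8, a trunk patterning gene and the Hoxd member with the highest level per kilobase, had values of 2396.4, 2141 and 1382 in PLK2null-732, PLK2null-733 and PLK2null-743. PLK2null-7763 had 1302, and the 24 remaining PLK2null tumors had 28.4 to 135 (median, 70.8). The claudin-low tumors lay above all others, and PLK2null-7763 lay far closer to them than to the rest. The log2 difference was 4.70 (SE, 0.62, adjusted p = 7.27e-07 by limma). Its promoter, printed above, held 6 CG dinucleotides, the median over all promoters.

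Hoxd9 and Hoxd10, which take part in limb and lower spinal cord patterning, were also high in these 4 tumors. Hoxd9 was at 1161, 1019 and 745 in the claudin-low tumors, in the order PLK2null-732, PLK2null-733, PLK2null-743, at 791 in PLK2null-7763 and at 1.30 to 92.0 (median, 17.3) in the 24 remaining tumors. Hoxd10 was at 468, 396 and 280, at 373 in PLK2null-7763 and at 0 to 40.1 (median, 5.46) in the remaining tumors. Both overlapped between claudin-low and other tumors only through PLK2null-7763. Their log2 differences were 5.33 (SE, 0.97, adjusted p = 6.95e-05 by limma) and 5.52 (SE, 1.16, adjusted p = 0.000378 by limma).

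At the 3′ end of the cluster, Hoxd3 was at 93.1, 134 and 91.2 in the claudin-low tumors, at 79.1 in PLK2null-7763 and at 0 to 20.4 (median, 3.48) in the remaining tumors. Hoxd4 was at 432, 511 and 383, at 353 in PLK2null-7763 and at 6.89 to 51.5 (median, 16.4). No value of the 25 others reached the claudin-low range for either gene. Hoxd3 passed the filter through the claudin-low tumors (mean, 106, beside 7.86 in the 25 others), so its test carries that limit. Log2 differences were 4.54 (adjusted p = 0.000205 by limma) and 4.47 (adjusted p = 4.55e-06 by limma). Of the most posterior Hoxd genes, Hoxd13, a digit patterning gene, was at 86.6 in PLK2null-732, 6.59 in PLK2null-733, 0.56 in PLK2null-743 and 9.32 in PLK2null-7763, and at most 0.73, below the floor, in the 24 remaining PLK2null tumors.

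The Hoxb genes split between an anterior and a posterior block. Hoxb5 was at 284, 309 and 291 in the claudin-low tumors, 120 in PLK2null-7763 and 7.53 to 38.0 (median, 19.7) in the 24 remaining tumors. Hoxb6 was at 751, 593 and 646, 235 in PLK2null-7763 and 11.3 to 77.0 (median, 26.8) in the remaining tumors. The claudin-low tumors stood well clear of all others for both genes, and PLK2null-7763 lay between. Hoxb7 was at 714, 642 and 623, with 292 in PLK2null-7763 and 12.8 to 70.3 (median, 31.1) in the remaining tumors. Hoxb8 was at 707, 593 and 526, with 156 in PLK2null-7763 and 11.3 to 117 (median, 33.5). Hoxb9, a paralog group 9 gene, was at 574, 505 and 220, with 182 in PLK2null-7763 and 3.91 to 46.0 (median, 14.9). The order was again claudin-low, then PLK2null-7763, then the rest. The log2 differences were 3.73, 4.45, 4.30, 4.04 and 4.53 for Hoxb5 to Hoxb9, with adjusted p-values by limma of 7.29e-08, 5.53e-08, 2.76e-07, 1.27e-06 and 2.29e-06. The spans of Hoxb5 and Hoxb6 overlap that of the antisense gene Hoxb5os.

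In the anterior block the other tumors were more varied. Hoxb4, studied for its part in blood stem cell growth, was at 566, 600 and 625 in the claudin-low tumors, 265 in PLK2null-7763 and 24.5 to 488 (median, 61.8) in the remaining tumors, a log2 difference of 2.85 (adjusted p = 0.00261 by limma). Hoxb3 was at 656, 878 and 780 in the claudin-low tumors and 25.04 to 969 (median, 97.8) in the 25 others. The 2 groups overlapped for Hoxb3, because PLK2null-1963 (969), PLK2null-1964 (905) and PLK2null-1967 (824) were as high. Its log2 difference was 2.54 (adjusted p = 0.0259 by limma), and the call was lost when any 1 of the 3 claudin-low tumors was left out (adjusted p = 0.0738 to 0.101 by limma). Hoxb2, a hindbrain patterning gene, was at 366 to 478 in the claudin-low tumors and 19.1 to 674 (median, 70.2) in the 25 others, a log2 difference of 1.98 (SE, 0.87, adjusted p = 0.075 by limma), and it did not pass.

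**Figure D4:**
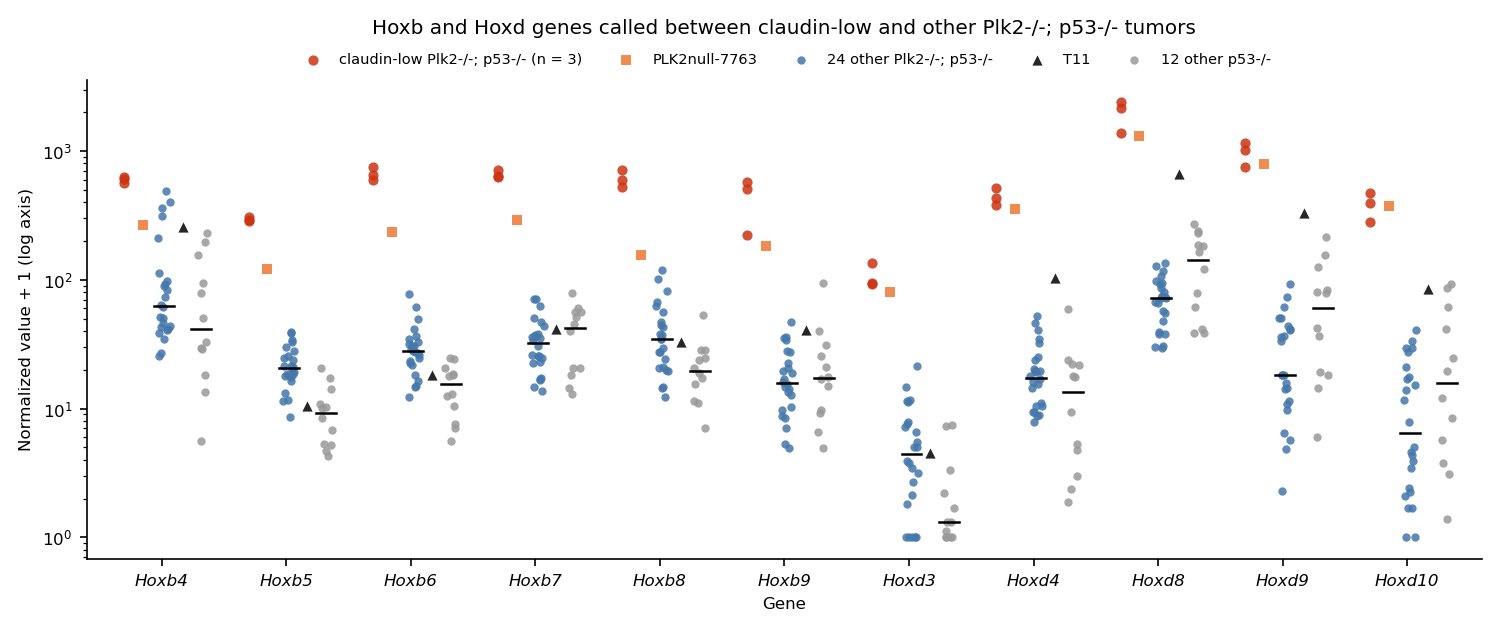
Normalized value + 1 (vertical log axis) of 11 Hoxb and Hoxd genes (horizontal axis) in each tumor, with points for single tumors, separate symbols for the 3 claudin-low PLK2null tumors, PLK2null-7763 and T11, and bars at the medians of the 24 remaining PLK2null and 12 remaining p53null tumors. PLK2null-7763 lies below or near the claudin-low tumors for each gene shown, and T11 lies near the other p53null tumors for Hoxb5 to Hoxb8.

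The Hoxc differences were smaller. Hoxc4 was at 60.9, 85.1 and 99.96 in the claudin-low tumors and at 1.25 to 55.0 (median, 17.98) in the 25 others. Hoxc5 was at 57.3, 78.7 and 67.8 and at 1.88 to 48.9 (median, 10.6). These groups did not overlap, with log2 differences of 2.39 (adjusted p = 0.00261 by limma) and 2.62 (adjusted p = 0.000288 by limma). Hoxc6, the Hoxc member with the highest level per kilobase, was at 165, 265 and 221 against 13.1 to 303 (median, 52.3), a log2 difference of 2.03 (adjusted p = 0.0117 by limma). Hoxc10, a hindlimb and lower trunk gene, was at 142, 160 and 192 against 3.75 to 172 (median, 43.9), a log2 difference of 2.13 (adjusted p = 0.0246 by limma). For both the ranges overlapped, and the call of Hoxc10 was lost when any 1 claudin-low tumor was left out (adjusted p = 0.0704 to 0.102 by limma) and that of Hoxc6 without PLK2null-733 (0.0724) or PLK2null-743 (0.0534).

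The Hoxa genes did not pass in either direction. Hoxa5 was at 234, 241 and 279 in the claudin-low tumors and 39.2 to 1610 (median, 357) in the 25 others, a log2 difference of −0.53 (SE, 0.85, adjusted p = 0.66 by limma). Hoxa9 was at 213, 116 and 159 against 9.79 to 626 (median, 48.2), a log2 difference of 1.62 (SE, 0.83, adjusted p = 0.13 by limma). Hoxa2 had a log2 difference of −1.50 (SE, 1.04, adjusted p = 0.27 by limma).

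Of the 16 members called, 11 kept their call in all alternatives in which they were tested (Hoxb4 to Hoxb9, Hoxc5, Hoxd3, Hoxd4, Hoxd8 and Hoxd9). Against the 7 primary tumors alone, the calls of Hoxb3, Hoxc4, Hoxc6, Hoxc10 and Hoxd10 were lost.

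Markers of other cell types moved with these Hox values. The sum of 6 blood endothelial markers (Pecam1, Cdh5, Kdr, Tie1, Esam and Emcn) was 165585 to 186496 in the claudin-low PLK2null tumors, 78025 in PLK2null-7763 and 2572 to 7743 in the 24 remaining PLK2null tumors. Sums of 5 pericyte markers were 80618 to 94363, 31514 and 2193 to 11014, and those of 5 adipocyte markers 99118 to 124694, 51831 and 226 to 3183. Epithelial markers ran the other way, at 48.0 to 361, 19143 and 41634 to 109942. The endothelial, pericyte and adipocyte sums thus put PLK2null-7763 between the claudin-low tumors and the rest, as did Hoxb5 to Hoxb9. Lymphocyte markers were higher too, with 4 T cell markers at 410 to 914 in the claudin-low tumors, 298 in PLK2null-7763 and 12.05 to 1070 (median, 45.8) in the remaining tumors, and 4 B cell markers at 661 to 887, 512 and 7.91 to 4616 (median, 23.7). The highest value of both in the remaining tumors was that of PLK2null-1981. No marker of the endothelial, pericyte, adipocyte or epithelial list was at or under the floor in all 3 claudin-low tumors. The 6 fibroblast markers summed to 15067 to 43842 in the claudin-low tumors, inside the 11197 to 201217 of the remaining tumors. The part of these cells in the Hoxb and Hoxd differences was not tested.

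T11, the claudin-low p53null tumor, carried a different Hox pattern. Among the 31 members that passed the filter, it was the highest of the 13 p53null tumors in 12. These were Hoxa6, Hoxa7, Hoxa9, Hoxb4, Hoxd4, Hoxd8, Hoxd9 and the Hoxc genes Hoxc4, Hoxc5, Hoxc6, Hoxc8 and Hoxc9. Hoxa11, Hoxd1 and Hoxd13, which did not pass the filter, were also highest in T11. The share of all genes for which T11 was the highest was not computed. Hoxc6 was at 1173, Hoxc4 at 980, Hoxc8 at 936, Hoxc9 at 495 and Hoxc5 at 323, whereas the highest value in the claudin-low PLK2null tumors was 265 for Hoxc6 and 99.96 or less for the other 4. Hoxa9 (532), Hoxa10 (518) and Hoxa11 (139) were also above the claudin-low PLK2null tumors, where they were at most 213, 54.8 and 1.43. Hoxd8 at 667 and Hoxd9 at 331 were below those tumors but above the 12 other p53null tumors, which had at most 270 and 215. Hoxb5 (9.52), Hoxb6 (17.3), Hoxb7 (40.2) and Hoxb8 (31.6) lay inside the range of the other p53null tumors.

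The difference between the 2 claudin-low contrasts was tested as an interaction in limma over all 41 tumors, in which T11, alone in its arm, is assumed to vary like the other tumors. Of 31 members, 4 had a larger claudin-low difference in PLK2null than in p53null tumors, 0 had a smaller one and 27 did not pass. At an unadjusted p below 0.05 the counts were 5 and 4. Over all 17208 genes tested, 6.54% were called in the first direction and 3.43% in the second. That background shifts with scaling, since calls in the first direction made up 65.6% of all calls as deposited and 55.4% after quantile normalization, and the median over all genes moved from 0.19 to −0.07. The 4 members were neighbours in the posterior Hoxb block, Hoxb5 (interaction, 3.46, adjusted p = 0.00745 by limma), Hoxb6 (4.02, adjusted p = 0.00503 by limma), Hoxb7 (3.997, adjusted p = 0.0119 by limma) and Hoxb8 (3.27, adjusted p = 0.0389 by limma). The call of Hoxb8 was lost under TMM rescaling (adjusted p = 0.053 by limma), under quantile normalization (0.14) and when any 1 claudin-low PLK2null tumor was left out (0.0574 to 0.0767). The endothelial (6876), pericyte (6425) and adipocyte (421) marker sums of T11 were in the range of the other p53null tumors. Its epithelial sum of 33757 was below all 12 of them (77233 to 276620), and its fibroblast sum of 158771 was high in their range of 16707 to 165083 (median, 40823). The part of these cells in the interaction and in the Hox pattern of T11 was not tested.

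**Figure D5:**
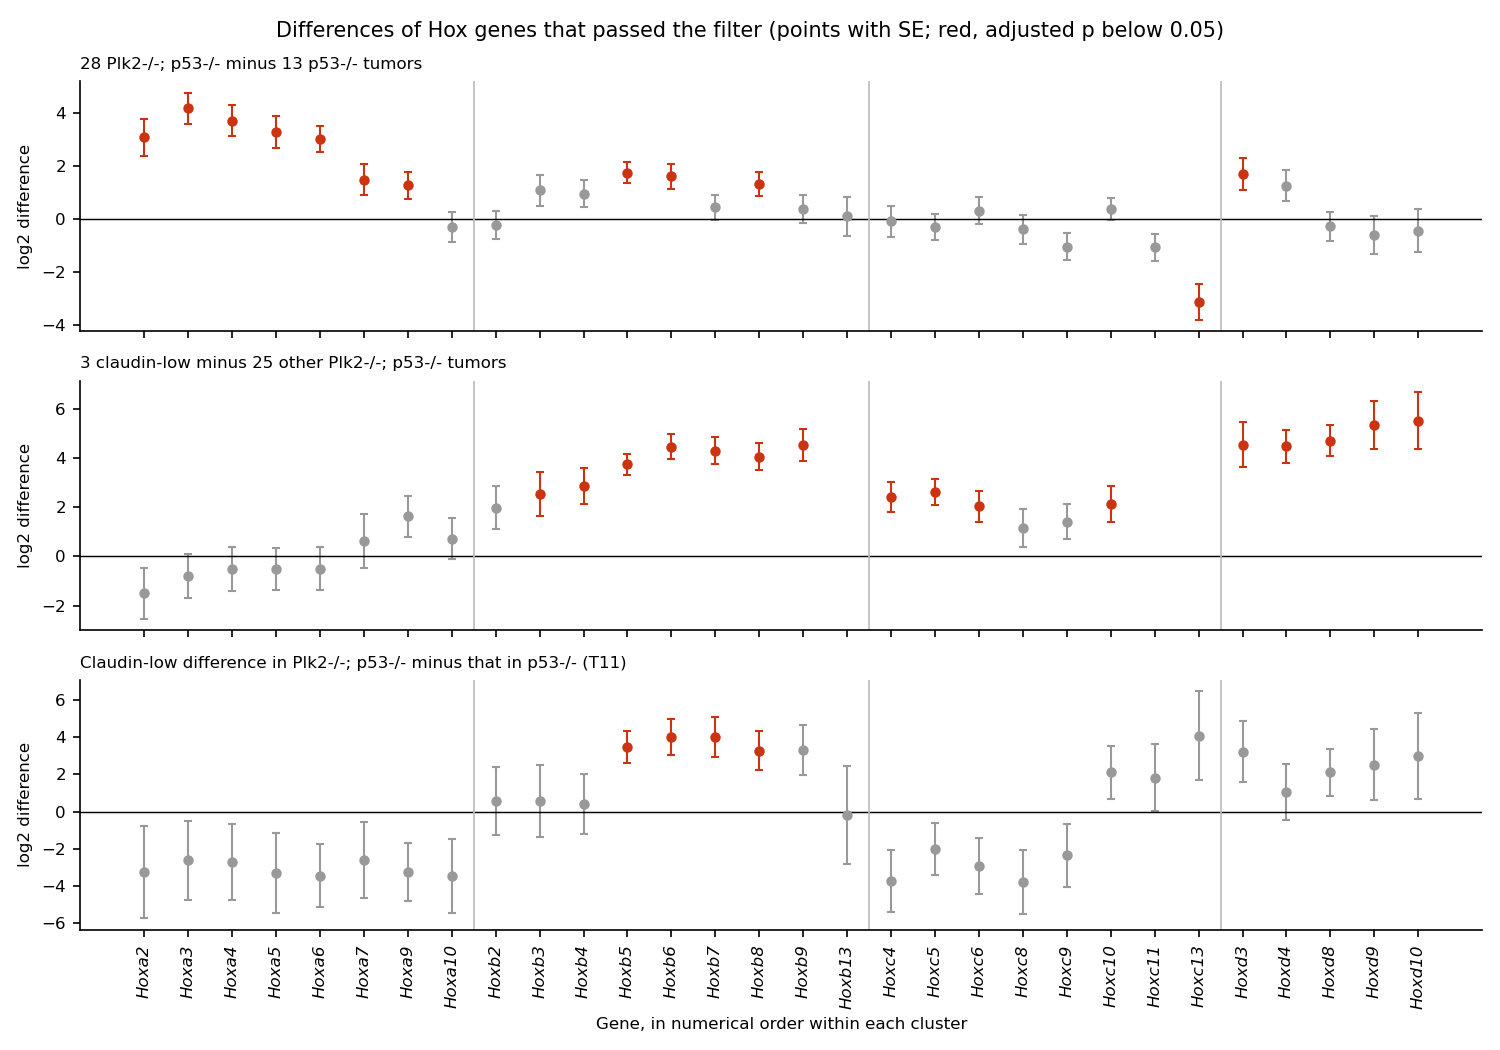
Fitted differences with SE (vertical axis, log2 units) of the Hox genes that passed the filter (horizontal axis, in numerical order within each cluster) for genotype, claudin-low status among PLK2null tumors and their interaction, with red for an adjusted p below 0.05. Red points run along Hoxa2 to Hoxa9 in the first panel, along Hoxb3 to Hoxb9 and Hoxd3 to Hoxd10 in the second and along Hoxb5 to Hoxb8 in the third.

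In all, 25 of the 31 members tested were called in at least 1 of these fits, and 4 (Hoxb5, Hoxb6, Hoxb8 and Hoxd3) in both the genotype and the claudin-low fit. Over all genes, the genotype fit called 6802 of 17208 and the claudin-low fit 6391 of 17153. The share of all genes called in at least 1 fit was not computed, so the 25 are not read as particular to Hox genes. The genotype and claudin-low fits share the PLK2null tumors. The 6 members called in none, Hoxa10, Hoxb2, Hoxb13, Hoxc8, Hoxc9 and Hoxc11, were not flat, and several were high in single tumors. In p53null-10151 every Hoxc gene was above the floor, with Hoxc13 at 759, Hoxc8 at 756, Hoxc6 at 640 and Hoxc11 at 480. Hoxc9 was at 232, Hoxc5 at 114, Hoxc10 at 110, Hoxc4 at 97.1 and Hoxc12 at 29.9. The median of the 13 p53null tumors was 3.28 for Hoxc11 and 0 for Hoxc12. Hotair, the noncoding gene between Hoxc11 and Hoxc12, was at 161 in this tumor and at or under 1.198 in every PLK2null tumor. Hoxb13, a prostate and hindgut gene that lies apart from the rest of its cluster, was at 476 in p53null-5317, 232 in p53null-2225L and 57.0 in PLK2null-1965, with a median of 0 in p53null and 1.81 in PLK2null tumors. These 2 p53null tumors also had Hoxc13 at 267 and 82.9.

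Tumor p53null-2208L joined posterior genes of separate clusters, with Hoxa10 at 762, Hoxa13 at 68.2, Hoxc9 at 468 and Hoxc13 at 410. Among PLK2null tumors, PLK2null-1963 had Hoxa9 at 547, Hoxa10 at 492 and Hoxa11 at 147, and PLK2null-1980 had the highest Hoxa9, at 626, with Hoxa10 at 250. Hoxa11, a uterus and limb gene, was above the floor in 9 of 41 tumors, Hoxa13 in 5 and Hoxd13 in 5. Hoxd13 was at 35.9 in T11. Hoxd1 exceeded the floor in 4 tumors and was highest in PLK2null-732 at 17.2.

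Neighbouring members varied together across the 41 tumors. The Spearman correlation had a median of 0.83 over 27 adjacent pairs, 0.49 over 83 pairs of the same cluster that are not adjacent and 0.12 over 355 pairs of different clusters. These are descriptions over the same 41 libraries, which also share the genotype and claudin-low differences. Overlapping gene spans may add likeness to some adjacent pairs. The closest pair was Hoxb3 and Hoxb4 (0.95) and the least alike neighbours were Hoxb9 and Hoxb13 (−0.07). Within Hoxa the median fell from 0.86 for adjacent genes to 0.47 for genes 6 places apart. Within Hoxb it fell from 0.67 for adjacent genes to 0.29 at 4 places. In Hoxb the likeness broke between Hoxb4 and Hoxb5 (0.42) and between Hoxb8 and Hoxb9 (0.46). The 30 pairs of paralogs with the same number had a median of 0.24, with Hoxb8 and Hoxc8 the most alike (0.65). Between clusters, values ran from −0.61 for Hoxa6 and Hoxc13 to 0.72 for Hoxb8 and Hoxc6.

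Tumors were also compared by their Hox genes, as the Pearson correlation over the 31 members beside that over the 17177 other genes tested. The closest other tumor by Hox genes was the closest by all other genes in 13 of 41 tumors, of which 12 were among the 28 PLK2null and 1 among the 13 p53null tumors. The 3 claudin-low PLK2null tumors correlated at 0.96 to 0.99 with each other over Hox genes and 0.93 to 0.96 over other genes. PLK2null-7763 correlated with them at 0.91 to 0.94 over Hox genes but 0.60 to 0.63 over other genes. T11 correlated with them at 0.16 to 0.24 over Hox genes and 0.33 to 0.38 over other genes. Correlations over 31 genes and over 17177 genes differ in their noise, so they are given side by side only.

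Of 16 noncoding genes of the clusters in the table, 5 passed the filter for the genotype fit and 6 for the claudin-low fit. The antisense genes Hoxaas2 and Hoxaas3 and the myeloid noncoding gene Hotairm1, all in Hoxa, were higher in PLK2null tumors, by 3.07, 2.41 and 2.27 on the log2 scale (adjusted p = 5.32e-07, 0.000339 and 0.000287 by limma), and the 2 others of 5 tested did not pass. These 3 of 5 are 60%, beside 24.3% of all genes. Hoxb3os, Hoxd3os1 and Haglr, of 6 tested (50%, beside 20.2% of all genes), were higher in the claudin-low PLK2null tumors by 4.40, 4.50 and 4.47. Haglr, an antisense gene of the anterior Hoxd cluster, was at 54.2 to 64.7 in those tumors, 66.3 in PLK2null-7763 and 0 to 5.62 in the remaining ones. It passed the filter through the claudin-low tumors and PLK2null-7763, so it had to differ. Its test is no support of its own, and the 50% counts it. Hoxd3os1 was at 130 to 168, 77.4 and 0.72 to 19.8. Since the spans of these genes overlap those of Hox genes, part of their reads may belong to the coding genes. Of the genes that flank the clusters, Skap1 beside Hoxb was higher in the claudin-low tumors (3.42, at 65.1 to 141 against 2.26 to 144), Calcoco1 beside Hoxc was lower (−0.58) and 5 of 7 did not pass. That is 14.3% in each direction, below the 20.2% higher and 17.1% lower over all genes. Between the genotypes, Skap2 beside Hoxa was higher in PLK2null tumors (0.97) and 6 of 7 did not pass. Its 14.3% is below the 24.3% over all genes.

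The TALE homeodomain proteins (Pbx, Meis and Pknox) bind DNA together with Hox proteins. Of 8 tested, 1 (12.5%, beside 24.3% of all genes) was higher in PLK2null tumors and 0 (beside 15.3%) were lower. The higher one was Meis2, at 3.75 to 712 (median, 136) against 2.45 to 165 (median, 27.1), a log2 difference of 1.85 (SE, 0.61, adjusted p = 0.014 by limma). In the claudin-low comparison 4 of 8 passed. Of these, 2 (25%, beside 20.2% of all genes) were higher, Pknox1 (1.12) and Pbx2 (0.80). The other 2 (25%, beside 17.1% of all genes) were lower, among them Pknox2 (−5.37). Pknox2 was at 1.198 to 3.58 in the claudin-low tumors and 11.2 to 1239 in the 25 others. Its claudin-low values lay near the floor of 3 reads, so its fitted difference depends on the pseudocount. Pknox2 passed the filter through the 25 others, so its test carries that limit. The median difference was 0.14 for genotype and −0.03 for claudin-low status over these genes, beside 0.10 and 0.02 over all genes.

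Trithorax proteins keep Hox genes active and Polycomb proteins keep them silent. A list of 18 genes held Trithorax-type genes and H3K27 demethylases, and also genes of neither kind, such as Aff1 and Mllt3. Of these 18, 12 (66.7%, beside 24.3% of all genes) were higher in PLK2null tumors, 0 were lower (1 at an unadjusted p below 0.05, by limma) and the median difference was 0.59. The largest were Kmt2a, the MLL methyltransferase that acts on Hoxa genes (1.64, at 2828 to 7221 against 717 to 2398, adjusted p = 4.01e-11 by limma), Kmt2d (1.45), Kmt2c (1.28) and Ash1l (1.01). The Kmt2a ranges did not overlap, and here too genotype and a library batch cannot be told apart. In the claudin-low comparison 2 (11.1%, beside 17.1% of all genes) were lower, Kmt2a (−0.59) and Aff1 (−0.61). No gene of the list was higher, beside 20.2% of all genes, and none was at an unadjusted p below 0.05 by limma. Of 27 Polycomb genes, 7 (25.9%) were higher and 3 (11.1%) lower in PLK2null tumors, near the 24.3 and 15.3% of all genes, led by Mtf2 (0.90), Phc3 (0.89) and Ezh1 (0.61) and by Cbx6 (−1.68). In the claudin-low tumors 3 (11.1%, beside 20.2% of all genes) were higher, Jarid2 (1.44), Rbbp4 (1.01) and Mtf2 (0.83), and 3 (11.1%, beside 17.1%) lower, Pcgf5 (−1.70), Phc1 (−1.15) and Pcgf2 (−1.02).

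Retinoic acid turns on anterior Hox genes in embryos. Of 17 genes of its synthesis, binding, breakdown and receptors, 7 (41.2%, beside 17.1% of all genes) were lower and 1 (5.88%, beside 20.2%) higher in the claudin-low PLK2null tumors, with a median difference of −1.39. The lower ones included the retinol carrier receptor Stra6 (−7.85, at 0 to 1.198 against 6.43 to 6483), Crabp1 (−5.32) and the synthesis enzyme Aldh1a3 (−3.80), and the higher one was Dhrs3 (1.13). All 3 Stra6 values in the claudin-low tumors were below the floor, so its fitted difference depends on the pseudocount. Between the genotypes 4 (23.5%, beside 15.3% of all genes) were lower in PLK2null tumors, led by the synthesis enzyme Aldh1a1 (−2.68), and 1 (5.88%, beside 24.3%) was higher, the breakdown enzyme Cyp26b1 (1.16). None of the 6 Cdx and ParaHox genes passed the filter.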

How the data were processed

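RNA of 41 mouse mammary tumors was sequenced from both ends (Illumina TruSeq mRNA kit, HiSeq instruments). The authors aligned reads to mm10 and quantified genes with Salmon. The tools in the submitters' processing notes are STAR 2.7.6a, Salmon 1.4.0, Picard 2.22.4 and SAMtools, and the gene annotation is not given in the sources used here. The deposited signal is the estimated count of each gene, not rounded, scaled by the authors to an upper quartile of 1000 per tumor. In each tumor 77.8 to 80.5% of the values above 0 came within 0.1 of a whole read, too few for a count model.

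Genotype came from the sample labels and the claudin-low class from the study's supplement. Genes with a mean of at least 10 were tested on log2(value + 1), with a pseudocount of 1, by limma 3.58.1 in R 4.3.3 without a trend, with Benjamini-Hochberg adjustment over all genes tested and a threshold of 0.05. The log2 scale understates changes of low genes. Every member is counted, a few genes are not reported by name here, and from each other list at most 4 called genes in each direction are named. The gene family that gives the members, and the lists, were chosen with earlier results of these data known. Positions came from GENCODE vM21, in which 95.0% of symbols matched a single gene. Python 3.11.15, numpy 2.4.6, pandas 2.3.3, scipy 1.17.1 and matplotlib 3.10.9 were used. The limma fits were tested on simulated data. Alternatives were other pseudocounts (10 and 0.1), no filter or a mean of at least 50, an intensity trend, TMM rescaling, quantile normalization, fewer tumors and claudin-low status as a term. Microarrays, xenografts and patient data of the study were not analysed here.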

Additional observations from a re-analysis of the deposited data

Results flagged for a closer look

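Hox values of single tumors were screened with Dixon's test in the 4 claudin-low tumors and in the 7 primary tumors. Chance flags about 1 in 20 such groups if their values come from 1 population. The 3 claudin-low PLK2null tumors were alike over other genes (correlations, 0.93 to 0.96) and less like T11 (0.33 to 0.38). Singling out T11 was thus likely in advance, and its flags are no support of their own. In the claudin-low tumors 10 of 30 members with a range above 0 were picked out, and 9 of these singled out T11. It was the lowest of the 4 for Hoxa3 (105.68, beside 318 to 385 in the others), Hoxb4 (254.05, beside 566 to 625), Hoxb5 (9.52, beside 284 to 309), Hoxb6 (17.3, beside 593 to 751), Hoxb7 (40.2, beside 623 to 714), Hoxb8 (31.6, beside 526 to 707) and Hoxd3 (3.55, beside 91.2 to 134). T11 was the highest for Hoxa10 (517.61, beside 36.6 to 54.8) and Hoxc9 (494.68, beside 42.2 to 57.5). PLK2null-732 was the highest for Hoxc13 (2.86, near its floor of 2.15, the others at 0). With the others all at 0, this flag did not depend on the size of the value.

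In the primary tumors 3 of 31 members were picked out. PLK2null-7763 was the highest for Hoxd4 (353, beside 13.3 to 31.5 in the others) and Hoxd8 (1302, beside 56.6 to 135), and PLK2null-7748 for Hoxc13 (9.04, beside 0 to 1.10).

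The claudin-low difference itself differed between the genotypes for Hoxb5 (interaction, 3.46 on the log2 scale), Hoxb6 (4.02), Hoxb7 (3.997) and Hoxb8 (3.27), as tested by limma with T11 as the only claudin-low p53null tumor.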

How the results depend on the processing

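No call changed direction under any alternative. Of 13 genotype calls, 6 passed in every alternative in which they were tested, as did 11 of 16 claudin-low calls and 3 of 4 interaction calls. With the 7 primary tumors against the 13 p53null tumors, 6 members in place of 12 were higher and 0 in place of 1 lower, and calls over all genes fell from 6802 to 2942. Lower genotype calls were 0 at a mean of at least 50, where Hoxc13 was not tested, and 2 under quantile normalization. Without p53null-7435, as without a filter and under TMM rescaling, Hoxa7 and Hoxa9 lost their call. Under quantile normalization these 2, Hoxb8 and Hoxd3 lost it, and with a pseudocount of 10 Hoxa9 and Hoxd3. Leaving out 1 claudin-low tumor gave 13 to 14 members higher in place of 16. Counting PLK2null-7763 with the claudin-low tumors, an alternative chosen after the data were seen, gave 17 higher and 1 lower. Lower interaction calls were 1 in place of 0 with a pseudocount of 10 and 1 with no filter. Members in all 41 tumors were 17 above the floor but 4 at a value of at least 10. The cause of these changes was not tested. By longest transcript, Hoxa5 was at 213 and Hoxb2 at 70.3 per kilobase, below Hoxa3 and Hoxb3.

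With 3 claudin-low PLK2null tumors and T11 alone, small differences could not be seen. Members near the floor of 3 reads depend on the pseudocount. Tumors that descend from 1 primary tumor, the library batch of the genotypes and the mix of cells in each tumor limit what the tests can show. No paired analysis was possible because the replicate numbers of the groups are running numbers of different tumors and pair none of them.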
